A study of Homo sapiens with 4 samples.

Results

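The ABC transporters and drug efflux pumps described here are the 46 gene symbols of the table that consist of ABC, a subfamily letter from A to G and a number, out of 35371 symbols in all. RNA-seq was done on A2780, an established cell line from a human ovarian carcinoma, with 2 libraries from cells given GD-07 and 2 from control cells. GD-07 is described by the series as a small-molecule inhibitor of MYC, a transcription factor of growth and metabolic genes. All cells were grown in DMEM with fetal bovine serum, and no genetic change is stated for any group. Controls received vehicle according to the series text and no treatment according to the sample labels. The labels state neither dose nor duration. They also do not say that replicates were separate cultures, and p-values here therefore cover the spread among these 4 libraries alone, which may be technical. Values are TPM, a level scaled per transcript length and to each library's total, so levels of different genes can be set side by side but the sequencing depth is unknown and counting intervals cannot be given.

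ABC proteins share a domain that binds and hydrolyses ATP. Most of them pair it with membrane-spanning segments and move lipids, peptides, metals, metabolites or drugs across a membrane, and ABCB1 (P-glycoprotein), ABCC1 (MRP1) and ABCG2 (BCRP) are known for pumping anticancer drugs out of tumour cells. Members of the E and F subfamilies lack membrane-spanning segments and act on ribosomes instead.

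With GD-07, 1 of the 22 ABC genes that could be tested changed (4.55%), a share near the 5.21% of all tested genes that did. It was ABCF2, a ribosome-associated member. ABCF2 was at 27.1 and 21.2 TPM in the GD-07 libraries, against 52.9 and 45.0 TPM in the control libraries. The drug pumps ABCC1 and ABCG2 had lower values with GD-07 but did not pass the test, and ABCB1 was near 0 in every library. The summed level of all 46 genes overlapped between the groups, at 577 and 591 TPM in the GD-07 libraries and 603 and 563 TPM in the control libraries, which is 0.0614% to 0.0657% of each library's listed TPM.

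**Figure D1:**
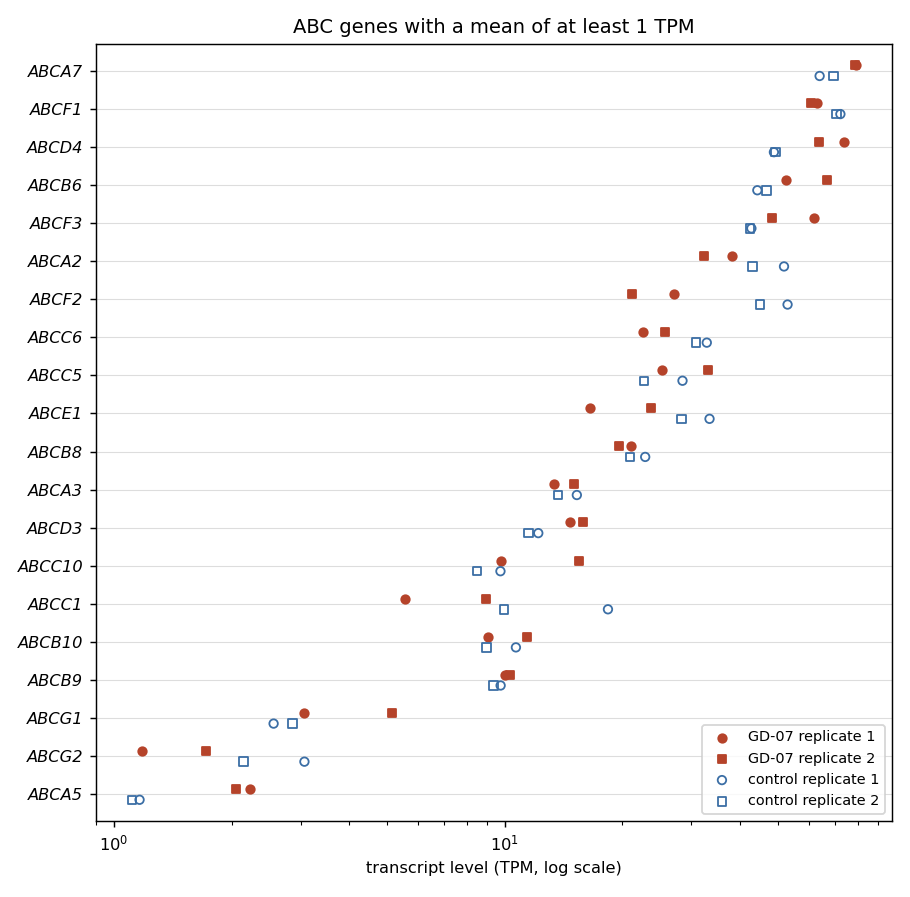
Transcript level in TPM (log scale) of 20 of the 22 ABC genes that passed the filter (mean 1 TPM or more), 1 row per gene from the highest mean at the top to the lowest. Filled points are the 2 GD-07 libraries and open points the 2 control libraries, and the GD-07 points of ABCF2 (27.1 and 21.2 TPM) lie left of its control points (52.9 and 45.0 TPM).

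Genes were kept for testing when their mean over the 4 libraries was at least 1 TPM, which left 13063 symbols, 22 of the 46 ABC genes among them. Groups were compared on log2(TPM + 1) with limma, a linear model with a spread shared across genes, and a gene was called when its p, adjusted over all 13063 genes by the Benjamini-Hochberg method, was under 0.05. Fold changes on this scale understate the change of low genes. Over all kept genes 264 were called higher (2.02%) and 417 lower (3.19%) with GD-07, a split that was 383 to 395 after quantile normalization. MYC itself was at 29.1 and 23.6 TPM with GD-07, against 86.0 and 67.5 TPM in control cells, and was called lower (log2 fold change -1.50 ± 0.18, limma standard error, adjusted p = 0.0109).

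The GD-07 libraries differed more from each other (r = 0.982 across kept genes on the log2 scale) than the control libraries did (r = 0.993). GD-07 replicate 2 stood apart, with 6.52% of its listed TPM in mitochondrially encoded transcripts, against 2.52% in GD-07 replicate 1 and 3.72% to 4.36% in the controls, and with 14683 symbols listed at 0, against 11598 to 12346 in the other libraries. GSS, the glutathione synthase gene that cells use widely, is also listed at 0 in every library, so a 0 here does not show absence. Of 10 epithelial and ovarian carcinoma markers, 2 (EPCAM and KRT18) reached a mean of 1 TPM, KRT7, PAX8, WT1 and MUC16 were at 0 or near it, and the list summed to 10.3 to 11.1 TPM with GD-07 and 7.56 to 8.10 TPM in controls. Of 7 fibroblast markers 6 were kept, none was at 0 in all libraries and none was called, but their sum was 33.8 to 52.8 TPM with GD-07 and 56.1 to 70.8 TPM in controls. The 5 leukocyte markers summed to 1.44 to 2.57 TPM with GD-07 and 1.99 to 2.45 TPM in controls, and the 4 endothelial markers stayed below 1 TPM in sum. All libraries are labelled as the same cell line, and which cells the fibroblast markers came from was not tested. Nor was their part in the ABC values, and since these are bulk libraries, fewer cells of a kind and less RNA per cell cannot be told apart.

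The ribosome-associated subfamilies E and F made up 29.2% and 26.1% of all ABC transcript level in the GD-07 libraries, against 33.4% and 33.1% in the controls. ABCF2 is the member that was called. It lies on the minus strand of chromosome 7 from 151212490 to 151227230 in GRCh38 (ENSG00000033050, protein-coding), and its counterpart in yeast, ARB1, takes part in making and exporting ribosomal subunits. Its level averaged 24.1 ± 4.17 TPM in GD-07 cells and 49.0 ± 5.59 TPM in control cells (SD, n = 2 each), with no overlap between the groups. Its log2 fold change came to -0.998 ± 0.18 (standard error from limma, adjusted p = 0.0233). Without any 1 of the 4 libraries its log2 fold change lay between -1.17 and -0.83. Such fits leave 1 library in a group, so passing there is not a check of the call. The call did not hold when every symbol above 0 in any library was tested (adjusted p = 0.219 in limma). In that fit no gene of 26773 was called and 3970 had an unadjusted p under 0.05. A second gene model on the same strand, AC021097.2, overlaps ABCF2 in GENCODE 29 and was not matched by name in the table, so its share of the reads is not known.

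The other ribosome-associated members did not pass. ABCE1, which splits terminated ribosomes into subunits for another round of translation, was at 16.5 and 23.7 TPM in GD-07 libraries, against 33.4 and 28.3 TPM in control libraries. Both GD-07 values lie below both control values (log2 fold change -0.61 ± 0.20, adjusted p = 0.105 in limma), and the value moved with the library left out. It was -0.86 without GD-07 replicate 2, which passed (adjusted p = 0.0189), -0.36 without GD-07 replicate 1 (0.218), -0.49 without control replicate 1 (0.471) and -0.73 without control replicate 2 (0.109). ANAPC10 and OTUD4 overlap ABCE1 on the opposite strand, and the sources used here do not say whether reads were counted by strand. In GENCODE 29 most kept ABC genes overlap another gene model on 1 of the strands, while ABCA7, ABCD3 and ABCF3 overlap none. ANAPC10 was at 18.3 and 22.3 TPM with GD-07 and 21.3 and 19.1 TPM in controls, and OTUD4 at 5.08 and 6.31 TPM with GD-07 and 7.57 and 5.47 TPM in controls, and in each the groups overlapped.

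ABCF1, which binds the initiation factor eIF2, was the second most abundant ABC gene, at 63.0 and 60.9 TPM with GD-07 and 72.3 and 70.7 TPM in controls. Its log2 fold change of -0.20 ± 0.14 did not pass (adjusted p = 0.402 in limma). ABCF3, which in mice works with an antiviral protein of the oligoadenylate synthetase family, had the opposite sign, at 61.9 and 48.3 TPM with GD-07 and 42.8 and 42.4 TPM in controls (0.35 ± 0.17, adjusted p = 0.223). Its change was 0.18 if GD-07 replicate 1 was left out (adjusted p = 0.485) and 0.53 if GD-07 replicate 2 was (0.0543). The F subfamily was thus not uniform in its values, with 2 lower and 1 higher. ABCF2 alone was called, and differences between these genes were not tested.

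**Figure D2:**
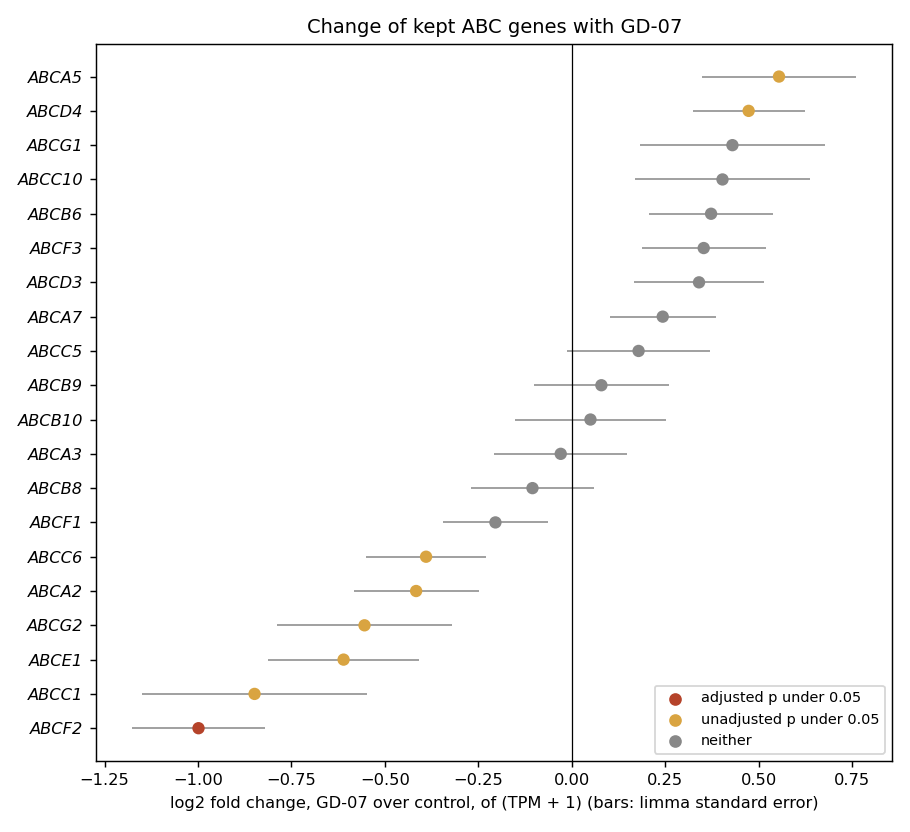
Log2 fold change of GD-07 over control on the log2(TPM + 1) scale for 20 of the 22 kept ABC genes, sorted from the highest at the top, with limma standard errors as bars. ABCF2 at -0.998 is the call (red), 7 more have an unadjusted p under 0.05 (yellow), and 11 of the 20 values are above 0.

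The DNA upstream of ABCF2 and of its relative ABCF1 is shown because the study concerns a MYC inhibitor and MYC with its partner MAX is known to bind the letters CACGTG, an E-box that reads the same on both strands. Each stretch begins 250 bases before the RefSeq start (GRCh38.p14) and ends before the first base of the gene in GENCODE 29. ABCF2 is from chr7:151227231-151227455 on the minus strand and ABCF1 from chr6:30571192-30571375 on the plus strand. Capitals mark CACGTG.
ABCF2: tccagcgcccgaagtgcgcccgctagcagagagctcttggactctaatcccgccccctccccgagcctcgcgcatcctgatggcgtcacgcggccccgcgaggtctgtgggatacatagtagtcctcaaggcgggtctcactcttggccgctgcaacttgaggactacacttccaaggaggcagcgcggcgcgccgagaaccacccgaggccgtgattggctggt
ABCF1: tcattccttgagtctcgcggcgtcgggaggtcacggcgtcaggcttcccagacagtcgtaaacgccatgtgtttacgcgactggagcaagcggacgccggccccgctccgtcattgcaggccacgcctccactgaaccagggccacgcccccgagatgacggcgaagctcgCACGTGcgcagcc
ABCF2 has no CACGTG in its window of 300 bases (250 before and 50 after the start), and ABCF1 has 1, starting at position -79 from the start. Of the 22 kept ABC genes 18 had a window, and 5 of these (ABCB6, ABCB9, ABCC10, ABCF1 and ABCG2) held CACGTG in at least 1 window. The letters occur in 7.26% of the 35116 RefSeq windows of this length, and 12.8% of kept genes with a window hold them in at least 1. No other letters were searched, and a match or the lack of one describes these letters, not binding.

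Values of the drug pump ABCC1 varied within both groups. ABCC1, which exports glutathione conjugates and several anticancer drugs, was at 5.57 and 8.98 TPM in GD-07 libraries, against 18.4 and 9.97 TPM in control libraries. The groups did not overlap, but GD-07 replicate 2 and control replicate 2 lay close together, and the log2 fold change of -0.85 ± 0.30 did not pass (adjusted p = 0.124 in limma). Leaving out control replicate 1 gave -0.44 (adjusted p = 0.646) and leaving out control replicate 2 gave -1.26 (adjusted p = 0.00374). Leaving out GD-07 replicate 1 gave -0.55 (adjusted p = 0.256) and leaving out GD-07 replicate 2 gave -1.15 (adjusted p = 0.039).

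ABCG2, a pump of topoisomerase inhibitors and urate, was at 1.18 and 1.72 TPM with GD-07, against 3.07 and 2.14 TPM in controls (-0.55 ± 0.24, adjusted p = 0.185 in limma). All 4 values are low, and both GD-07 values lie below both control values. The change was -0.37 without control replicate 1 (adjusted p = 0.759), and -0.80 and -0.24 with pseudocounts of 0.1 and 5 TPM. ABCB1, the P-glycoprotein gene, was at 0.0314 and 0.0168 TPM in GD-07 libraries and at 0.0342 and 0.0395 TPM in control libraries, too low for the test. ABCB1, ABCC1 and ABCG2 together made up 1.17% and 1.81% of all ABC transcript level with GD-07, against 3.56% and 2.16% in the controls.

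The other C subfamily members, relatives of ABCC1, did not move one way. ABCC5, an exporter of cyclic nucleotides, was at 25.3 and 33.1 TPM with GD-07 and 28.5 and 22.7 TPM in controls, and the groups overlapped (log2 fold change 0.18 ± 0.19, adjusted p = 0.607 in limma, and between -0.00765 and 0.37 when 1 library was left out). ABCC10, another drug exporter of this subfamily, was at 9.80 and 15.5 TPM with GD-07 and 9.75 and 8.48 TPM in controls (0.40 ± 0.23, adjusted p = 0.318). Leaving out GD-07 replicate 2 gave a change of 0.10, and leaving out GD-07 replicate 1 gave 0.71. DLK2, which overlaps the end of ABCC10 on the opposite strand, was at 9.68 and 11.1 TPM with GD-07 and 6.81 and 7.68 TPM in controls. ABCC6, whose loss causes the mineralization disorder pseudoxanthoma elasticum, was at 22.5 and 25.7 TPM with GD-07 and 32.9 and 30.8 TPM in controls (-0.39 ± 0.16, adjusted p = 0.176). Its value is uncertain because ABCC6 has near-identical pseudogenes, ABCC6P1 and ABCC6P2, between which reads can be split. ABCC1 and ABCC6 are neighbours on chromosome 16, 5853 bases apart, and both had lower values with GD-07.

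No transporter of the D subfamily passed the test. ABCD4, which with LMBRD1 carries cobalamin out of lysosomes, was at 73.7 and 63.7 TPM in GD-07 libraries, against 48.8 and 49.3 TPM in control libraries. It came closest to the threshold on the higher side (log2 fold change 0.47 ± 0.15, adjusted p = 0.0944 in limma). Its change lay between 0.37 and 0.58 when 1 library was left out. The peroxisomal fatty acid importer ABCD3, also called PMP70, was at 14.7 and 15.9 TPM with GD-07 and 12.2 and 11.5 TPM in controls (0.34 ± 0.17, adjusted p = 0.263).

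Of the mitochondrial B subfamily members, ABCB6, described as a porphyrin transporter, was the most abundant, at 52.4 and 66.9 TPM with GD-07 and 44.3 and 46.7 TPM in controls. Its log2 fold change of 0.37 ± 0.17 did not pass (adjusted p = 0.202 in limma), and was 0.55 without GD-07 replicate 1 (adjusted p = 0.0336) and 0.20 without GD-07 replicate 2. ABCB10, needed for heme synthesis in red cell precursors, was at 9.08 and 11.4 TPM with GD-07 and 10.7 and 8.98 TPM in controls, and ABCB8, an inner membrane protein, at 21.0 and 19.6 TPM with GD-07 and 22.9 and 20.9 TPM in controls. In ABCB8 and ABCB10 the groups overlapped. ABCB9, a lysosomal peptide transporter, was at 10.0 and 10.3 TPM with GD-07 and 9.76 and 9.36 TPM in controls, and is overlapped on the opposite strand by ARL6IP4, which was at 538 and 362 TPM with GD-07 and 407 and 468 TPM in controls.

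Lipid transporters of the A and G subfamilies differed in sign. ABCA7, a phospholipid transporter and known Alzheimer risk gene, was the most abundant ABC gene, at 79.4 and 78.7 TPM with GD-07 and 64.0 and 69.3 TPM in controls (log2 fold change 0.24 ± 0.14, adjusted p = 0.32 in limma). ABCA2, which handles sterols and sphingolipids in endosomes and lysosomes, was at 38.2 and 32.4 TPM with GD-07 and 51.8 and 43.1 TPM in controls (-0.42 ± 0.17, adjusted p = 0.167). ABCA5, a lysosomal member, was at 2.23 and 2.05 TPM with GD-07 and 1.16 and 1.11 TPM in controls (0.55 ± 0.21, adjusted p = 0.141, with 0.86 and 0.22 at pseudocounts of 0.1 and 5 TPM). The groups are apart in all 3, but none passed. ABCA3, the surfactant lipid transporter of the lung, was at 13.3 and 15.0 TPM with GD-07 and 15.3 and 13.7 TPM in controls, and its fold change of -0.03 turned positive after median-ratio or quantile scaling and without control replicate 1 or GD-07 replicate 1. ABCG1, which passes cholesterol to high-density lipoprotein, was at 3.06 and 5.14 TPM with GD-07 and 2.56 and 2.86 TPM in controls (0.43 ± 0.25, adjusted p = 0.313), with changes of 0.13 if GD-07 replicate 2 was left out, 0.73 if GD-07 replicate 1 was, and 0.23 at a pseudocount of 5 TPM.

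Across the 22 kept genes, 13 fold changes were positive and 9 negative, with a median of 0.09, against -0.04 over all 13063 kept genes. An unadjusted p under 0.05 was found for 8 (36.4%), 2 higher and 6 lower, against 24.8% of all kept genes (10.1% higher and 14.7% lower). The 2 higher were ABCD4 and ABCA5 and the 6 lower were ABCF2, ABCE1, ABCC1, ABCA2, ABCC6 and ABCG2. In 17 of 22 genes (77.3%) the GD-07 and control libraries did not overlap, 10 higher and 7 lower, against 55.8% of all kept genes (25.3% higher and 30.5% lower). Changes of ABCB8, ABCB9, ABCB10 and ABCA3 lay between -0.10 and 0.08, with limma adjusted p between 0.733 and 0.939. The median distance between replicates of the kept ABC genes on the log2 scale was 0.22 in the GD-07 pair and 0.14 in the control pair, against 0.23 and 0.17 over all kept genes.

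**Figure D3:**
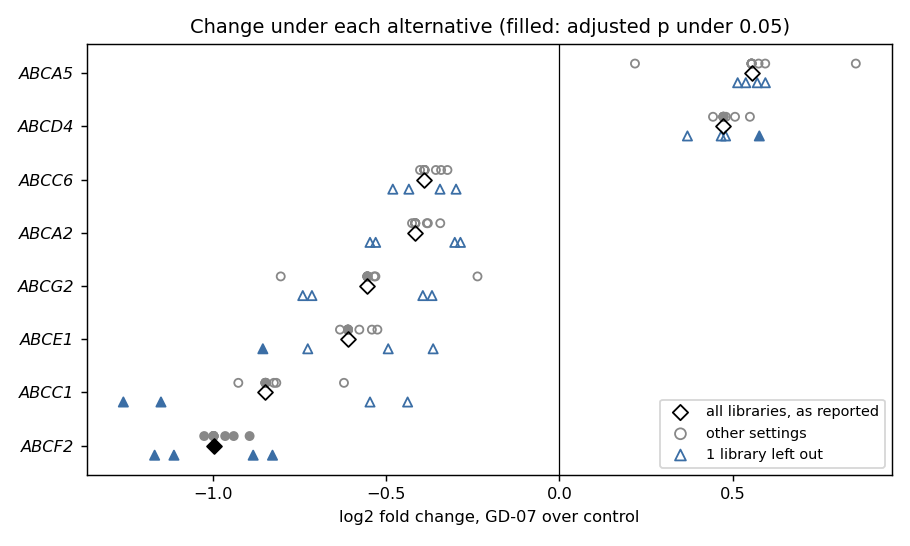
Log2 fold change of GD-07 over control for the 8 ABC genes with an unadjusted p under 0.05, as reported (diamonds), under the other settings (circles) and without 1 library (triangles), filled where the adjusted p was under 0.05. Among alternatives fitted on all 4 libraries, ABCF2 passed in all but the one with no filter, whose open circle is hidden by its diamond. The circles include the replicate block with numbers crossed, which was chosen after seeing the data. ABCC1 lay between -1.26 and -0.44. Adjusted p of fits without 1 library are not comparable with those of the other fits.

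The 24 ABC genes below 1 TPM together summed to 4.71 to 5.95 TPM per library, with a median mean of 0.103 TPM, and 11 had a mean under 0.1 TPM. ABCA1, the cholesterol exporter that builds high-density lipoprotein, fell just below the filter, with a mean of 0.979 TPM, and ABCA5 just above it, with 1.64 TPM. ABCA1 was at 0.911 and 0.922 TPM with GD-07 and 1.51 and 0.577 TPM in controls, and the groups overlapped. ABCB5, a drug pump known from melanoma, was at 0.0961 and 0.146 TPM with GD-07 and 0.107 and 0.149 TPM in controls, and the bile salt export pump ABCB11 was listed at 0 in every library.

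Of the 23 low genes above 0 in at least 1 library, the groups did not overlap in 9 (39.1%), 4 higher and 5 lower. The same held for 32% of all 13710 such symbols below the filter, 11.8% higher and 20.3% lower. The sulfonylurea receptor gene ABCC8, which forms part of a potassium channel, was at 0.656 and 0.954 TPM with GD-07 and 0.273 and 0.331 TPM in controls, and ABCC3, an exporter of glucuronide conjugates, at 0.276 and 0.320 TPM with GD-07 and 0.649 and 0.654 TPM in controls. These 2 genes were chosen after their values were seen. When the filter was set to a mean of 0.5 TPM, 26 ABC genes were tested, and ABCF2 was again the 1 called (adjusted p = 0.0373 in limma). ABCC8 did not pass there (log2 fold change 0.47 ± 0.19, adjusted p = 0.193).

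**Figure D4:**
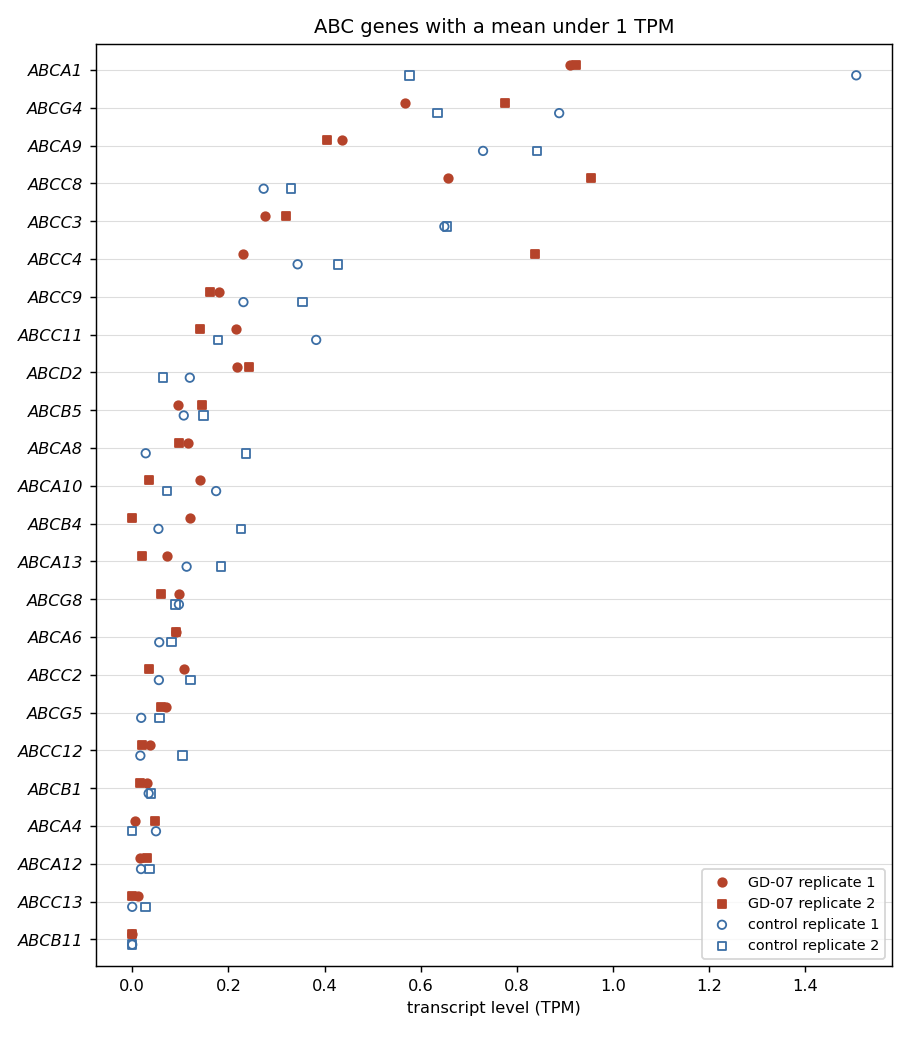
Transcript level in TPM (linear scale) of the 24 ABC genes with a mean under 1 TPM, from the highest mean at the top, with filled points for the 2 GD-07 libraries and open points for the 2 control libraries. ABCB1 lies below 0.04 TPM in all 4 libraries, and the largest single value is ABCA1 at 1.51 TPM in control replicate 1.

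Genes that work beside these transporters were listed in 9 groups, of which 110 genes in all were kept. Of these 110, 5 were called higher and 6 lower with GD-07, or 10.0%, against 5.21% of all kept genes. The lists were chosen with earlier results of these data known, so the 2 shares are not a test of the lists. Shares called in single lists ran from 0% to 17.6%, in lists of 3 to 20 kept genes, and were not tested. Over all kept genes 2.02% were called higher and 3.19% lower, the shares to set beside the counts of each list below. Testing every symbol above 0 ended all 11 calls. Fits without the intensity trend ended those of GSTM2, MGST2, SLC29A2, SLCO4A1 and ZNF598, and a filter of 0.5 TPM those of MGST2, SLC29A2 and SLCO4A1. The ABC superfamily has 3 members under other symbols, and none passed. TAP2, a subunit of the peptide transporter that loads MHC class I, was at 61.3 and 62.2 TPM with GD-07 and 74.6 and 74.7 TPM in controls (log2 fold change -0.27 ± 0.14, adjusted p = 0.267 in limma). TAP1, its other subunit, was at 4.92 and 11.3 TPM with GD-07 and 10.0 and 11.6 TPM in controls, and the groups overlapped. The chloride channel gene CFTR was at 2.03 and 1.75 TPM with GD-07 and 1.94 and 2.52 TPM in controls.

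Of 17 kept genes of glutathione synthesis and conjugation, which make the conjugates that ABCC pumps export, 3 were called higher (17.6%) and none lower. Over all kept genes the shares were 2.02% higher and 3.19% lower, and the difference was not tested. The other 14 of the list did not pass, and its median was 0.29. MGST3, a microsomal glutathione transferase, was at 232 and 218 TPM with GD-07, against 116 and 131 TPM in controls (log2 fold change 0.86 ± 0.14, adjusted p = 0.0214 in limma). GSTM2 was at 73.5 and 75.7 TPM with GD-07, against 45.1 and 39.5 TPM in controls (0.81 ± 0.15, adjusted p = 0.0263), and MGST2 at 36.6 and 46.2 TPM with GD-07, against 23.0 and 24.5 TPM in controls (0.77 ± 0.17, adjusted p = 0.0392). In all 3 the groups were apart. The call ended for MGST3 without control replicate 1 (adjusted p = 0.101), for GSTM2 without control replicate 2 (0.0802) and for MGST2 without control replicate 1 (0.136) or GD-07 replicate 2 (0.0613).

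Of 13 kept genes of drug, copper and nucleoside transport outside the ABC family, 2 fell, none rose and 11 did not pass, with a median of 0.04. The nucleoside transporter SLC29A2 was at 26.2 and 29.02 TPM with GD-07, against 49.8 and 42.7 TPM in controls (-0.72 ± 0.16, adjusted p = 0.0392 in limma). The organic anion transporter SLCO4A1 was at 4.25 and 5.12 TPM with GD-07, against 9.14 and 8.90 TPM in controls (-0.82 ± 0.20, adjusted p = 0.0487). SLC29A2 did not pass without control replicate 1 (adjusted p = 0.261), and SLCO4A1 passed neither without 1 of the controls nor without GD-07 replicate 1 (0.0793 to 0.22).

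Of 12 kept genes of sterol handling and of LXR, the receptor that switches on ABCA1 and ABCG1, 1 rose and 1 fell. NPC2, which hands cholesterol out of lysosomes, was at 177 and 218 TPM with GD-07, against 104 and 97.6 TPM in controls (log2 fold change 0.95 ± 0.15, adjusted p = 0.0205 in limma). SCARB1, the receptor for high-density lipoprotein, was at 21.3 and 20.7 TPM with GD-07, against 46.9 and 36.4 TPM in controls (-0.94 ± 0.17, adjusted p = 0.0263, and 0.122 without control replicate 1). The list had a median of -0.08.

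Of 20 kept genes of mitochondrial iron-sulfur cluster and heme synthesis, the pathways that mitochondrial ABC transporters serve, 1 rose and 1 fell, with a median of -0.03. HSCB, a co-chaperone of iron-sulfur cluster transfer, was at 41.2 and 44.9 TPM with GD-07, against 21.3 and 22.1 TPM in controls (log2 fold change 0.96 ± 0.15, adjusted p = 0.0205 in limma). FECH, ferrochelatase, the last enzyme of heme synthesis, was at 7.71 and 6.57 TPM with GD-07, against 19.8 and 15.3 TPM in controls (-1.18 ± 0.20, adjusted p = 0.0214, and 0.0567 without control replicate 1).

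Of 6 kept cobalamin genes around ABCD4, 1 fell, with a median of -0.41. MMACHC, which processes cobalamin after it leaves the lysosome, was at 3.41 and 3.07 TPM with GD-07, against 7.24 and 7.80 TPM in controls (log2 fold change -1.01 ± 0.20, adjusted p = 0.0307 in limma, and 0.0699 and 0.0764 without control replicates 1 and 2). LMBRD1, the partner of ABCD4, was listed at 0 and 0.000978 TPM with GD-07 and at 0.229 and 0.202 TPM in controls, below the filter and not tested. Of 12 kept partners of ABCE1 and ABCF proteins in ribosome recycling and the GCN2 pathway, 1 fell, with a median of -0.13. It was ZNF598, a sensor of collided ribosomes, at 18.9 and 17.4 TPM with GD-07, against 33.4 and 29.8 TPM in controls (-0.77 ± 0.16, adjusted p = 0.0354, and 0.209 without control replicate 1).

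None of 14 kept peroxisomal genes passed (median 0.13), and the smallest p belonged to SCP2, a peroxisomal thiolase and lipid carrier (log2 fold change 0.55 ± 0.16, adjusted p = 0.0752 in limma). None of 13 kept reported regulators of efflux pumps passed (median -0.28). The smallest p there belonged to the hypoxia factor HIF1A, at 36.1 and 39.5 TPM with GD-07 and 66.8 and 50.5 TPM in controls (-0.61 ± 0.17, adjusted p = 0.0744). NR1I2, the xenobiotic receptor PXR that induces ABCB1, was listed at 0 in all 4 libraries.

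**Figure D5:**
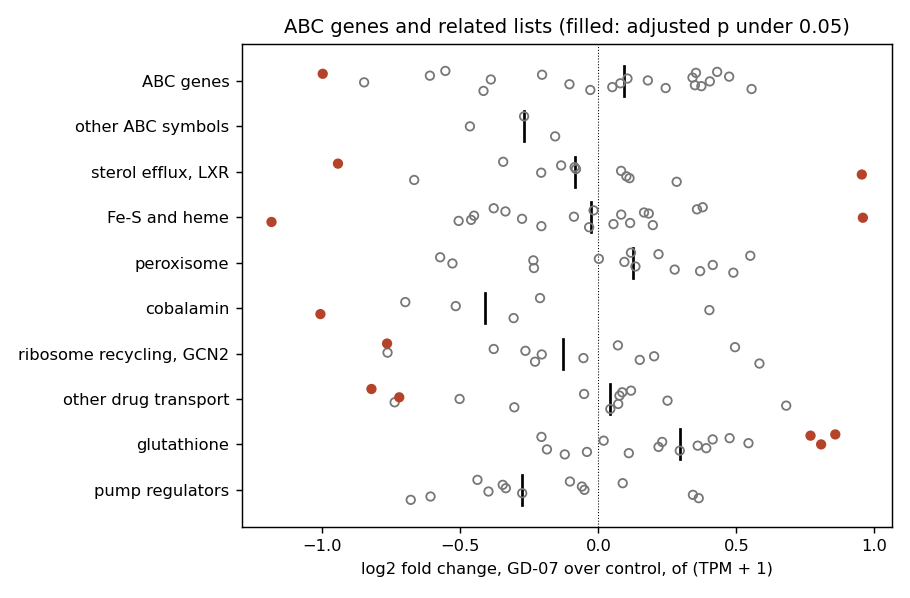
Log2 fold change of GD-07 over control on the log2(TPM + 1) scale for the kept ABC genes and the kept genes of the 9 related lists, 1 point per gene with the list's median as a bar, filled where the adjusted p was under 0.05. The 3 calls of the glutathione list lie on the higher side, and the single ABC call is ABCF2 at -0.998.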

How the data were processed

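RNA-seq libraries were read from both ends for 150 bp after oligo(dT) selection, per the labels' protocols. The authors deposited TPM per gene symbol. The tools kallisto, Subread and limma 3.60.4 and the build GRCh38 are named, without roles, per the submitters' processing notes. TPM keeps no depth, and each level depends on the rest of its library.

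From the deposited TPM, genes averaging 1 TPM or more over the 4 libraries were compared on log2(TPM + 1) with limma 3.58.1 in R 4.3.3. Settings were eBayes with an intensity trend, two-sided tests, and Benjamini-Hochberg over all kept genes with a threshold of 0.05. The procedure was also run on simulated data with independent noise that followed the intensity trend exactly. No simulated library stood apart as GD-07 replicate 2 does, so that run is no check of the calls. Exact permutation of 2 against 2 libraries cannot give a p under 0.333. Fits without 1 library assume that the lone library varies like the other group. Their p-values are not comparable with those of the fit on all 4 libraries. Symbols were matched by name to GENCODE 29 (46 of 46) and to RefSeq promoter windows (35 of 46). Values of 20 of the 22 kept ABC genes are given by name (the other 2 count in totals and are not reported here), and related lists give the genes that passed or had the smallest p; CFTR, LMBRD1, NR1I2 and ABCA9 were added after their values were seen. The members and lists were chosen with earlier results of these data known. Alternatives were another pseudocount, filter, scaling or trend, a replicate block, and leaving out each library.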

Additional observations from a re-analysis of the deposited data

How the results depend on the processing

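The number of genes called was 681, and 385 without limma's intensity trend, 0 with no filter on low values (limma, 3970 at an unadjusted p under 0.05) and between 310 (no control replicate 1) and 2217 (no GD-07 replicate 1) without 1 library, with 1055 without GD-07 replicate 2. ABC genes called numbered 1, and 0 with no filter (limma, 11 at an unadjusted p under 0.05) and between 1 and 4 without 1 library (4 without GD-07 replicate 2, 2 without control replicate 2 or GD-07 replicate 1), and genes of the related lists 11, and 6 without the trend, 0 with no filter and between 3 (no control replicate 1) and 26 (no GD-07 replicate 1), with 18 without GD-07 replicate 2. The median of the kept ABC genes lay between 0.02 and 0.18 in the alternatives run. Of 286 single values of the 22 kept ABC genes over 13 alternatives, 7 had the opposite sign to the reported change. Direction turned for ABCA3 (0.00278 with median-ratio scaling, 0.0121 with quantile scaling, -0.11 to 0.0494 when 1 library was left out), ABCB10 (-0.10 to 0.20 when 1 was left out) and ABCC5 (-0.00765 to 0.37), none of them called, and the cause was not tested. With the replicate number as a block 912 genes and 1 ABC gene were called, and the block ended the call of SLCO4A1 (limma adjusted p = 0.101). Libraries of the same number deviated in opposite directions (r = -0.279 across 13063 genes). The labels do not say whether the numbers pair the samples, and this value cannot settle it. With the numbers crossed, an alternative chosen after seeing the data, the block gave 2934 calls among 13063 genes. Of these, 5 were among the 22 kept ABC genes, a share near that of all genes, and 30 among the 110 of the related lists.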

Other observations

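The table also holds 13 ABC pseudogene symbols that carry a P after the number and are outside the 46 symbols described above. ABCC13 carries no P and is counted among the 46, but it is annotated as a transcribed unprocessed pseudogene. Its mean was 0.00975 TPM, and it is 1 of the 24 symbols below the filter. The most abundant of the 13 was ABCA11P, at 3.75 and 5.43 TPM with GD-07 and 4.53 and 4.38 TPM in controls. The groups overlapped. ABCA17P, which overlaps the lung surfactant gene ABCA3 on the opposite strand, was at 1.28 and 1.34 TPM with GD-07 and 1.19 and 1.48 TPM in controls. Of the 2 pseudogenes of ABCC6, ABCC6P2 was at 1.79 and 0.942 TPM with GD-07 and 2.54 and 2.50 TPM in controls, where the groups did not overlap but the test was not passed (log2 fold change -0.59, limma adjusted p = 0.167), and ABCC6P1 was at 0.776 and 1.29 TPM with GD-07 and 1.60 and 0.750 TPM in controls. Both pseudogenes of ABCF2, the called gene, were listed at 0 in every library.

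On chromosome 17 the 5 genes ABCA8, ABCA9, ABCA6, ABCA10 and ABCA5 stand side by side on the same strand, with gaps between 5325 and 19095 bases except for ABCA10 and ABCA5, which overlap. ABCA5 at the end of this row was the 1 member above 1 TPM, with a mean of 1.64 TPM, while the means of the other 4 were 0.603 TPM for ABCA9, 0.12 TPM for ABCA8, 0.106 TPM for ABCA10 and 0.08 TPM for ABCA6. ABCA5 had higher values with GD-07, and ABCA9 was at 0.436 and 0.405 TPM with GD-07 and 0.730 and 0.842 TPM in controls. ABCA6 had higher values with GD-07, and in ABCA8 and ABCA10 the groups overlapped. All but ABCA5 were below the filter and not tested.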
